A study of Mus musculus with 8 samples.

Results

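A set of 34 genes that encode the junctions between epithelial cells, and the adhesion molecules at their sides and base, were followed across 8 RNA-seq libraries of mouse airway epithelial cells. They were chosen by name as genes of the tight junction, adherens junction, desmosome, polarity complexes and epithelial integrins, and they are 34 of the 25124 gene symbols in the deposited table. Of the 34, 30 reached a mean normalized count of 10 and were tested among 7512 genes. The other 4 (Cldn1, Cldn23, Dsc2 and Itgb6) were too low and are given by their values.

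The cells were sorted from the lungs of C57BL/6 mice, either wild type for Stat3 (STAT3-WT, here WT) or with a conditional knockout of it (STAT3-cKO, here cKO). STAT3 is a transcription factor that cytokines of the IL-6 family activate. Mice of each genotype received house dust mite (HDM), an allergen that inflames the airways of mice, or phosphate-buffered saline (PBS), which gives 4 groups of 2 libraries: WT PBS, WT HDM, cKO PBS and cKO HDM. The study's design text names the HDM-sensitized genotypes as its comparison. Unknown from the sources used here are the cells in which Stat3 was deleted, the driver of the deletion, the HDM schedule, and the sex and age of the mice. Whether both libraries of a group stem from different mice is likewise not stated. The p-values therefore measure only how far these libraries spread, which may be technical.

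Epithelial cells are held together by a stack of junctions below the apical surface. At the top, claudins, occludin and their relatives close the space between cells and are tied to actin by plaque proteins such as ZO-1, while the Par and Crumbs complexes place this belt at the apical end of the side wall. Below it, E-cadherin binds its like on the next cell and is coupled to actin through catenins, desmosomes bind keratin filaments, and integrins at the base hold the cell to the basement membrane. HDM proteases and type 2 cytokines are known to loosen tight and adherens junctions in airway epithelium.

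None of the 30 tested genes passed in any of the 7 comparisons made (limma on log2(value + 1), Benjamini-Hochberg adjusted p under 0.05 over the 7512 genes). By edgeR and by DESeq2 on the whole reads, 0 passed as well. What the libraries showed instead was a set of fold changes that did not pass. In the 4 comparisons of 2 groups, most of their 95% intervals reached beyond 2-fold. In WT HDM, β-catenin, integrin α6 and vinculin were higher in both libraries than in both WT PBS libraries, and 9 genes, Cdh1, Dsp and Itgb4 among them, were lower in both; of all genes tested 21.2% were higher and 20.8% lower in this way. Of the 30 genes 25 had a negative log2 fold change there, against 51.5% of all genes, and 19 of 30 without WT HDM replicate 2. In the libraries labelled cKO the HDM fold changes were split, 17 positive and 13 negative. E-cadherin, α-catenin, β-catenin, Cldn3 and Epcam were measured closely enough that their 95% intervals lay within 2-fold in each of the 4 comparisons of 2 groups.

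The libraries held 232556 to 593200 reads, and 3 reads, the limit that a count of 0 allows, were worth 1.96 to 4.88 normalized counts. Replicates correlated across genes at r = 0.56 (cKO PBS), 0.68 (WT HDM), 0.77 (cKO HDM) and 0.77 (WT PBS), and WT HDM replicate 2 and cKO PBS replicate 1 stood apart from the rest. Stat3 itself was at 75.8 and 40.9 normalized counts in WT PBS, 134 and 157 in WT HDM, 56.9 and 96.5 in cKO PBS, and 76.9 and 92.2 in cKO HDM. It was not lower in the PBS libraries labelled cKO, so each direction between genotypes rests on the labels. Club and ciliated cell markers were abundant in every library, while the basal cell marker Krt14 had 0 reads in all 8 and Krt5 was at 0 to 12.7. Alveolar type 2 cell markers were present too: their 10 genes summed to 4186 to 5784 normalized counts in the PBS and cKO HDM libraries and to 9534 and 13951 in WT HDM. The sorted cells therefore carried alveolar as well as airway transcripts.

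Junction and adhesion genes together took close to 1% of all reads. Their share was 1.00% (exact Clopper-Pearson 95% interval 0.972 to 1.03) and 0.996% (0.966 to 1.03) in WT PBS, 0.897% (0.873 to 0.921) and 0.825% (0.794 to 0.857) in WT HDM, 0.967% (0.927 to 1.01) and 0.968% (0.933 to 1.00) in cKO PBS, and 1.02% (0.995 to 1.05) and 0.947% (0.919 to 0.975) in cKO HDM. Both WT HDM shares lay below those of the other 6 libraries. Such intervals cover counting error only, because PCR copies cannot be told from separate molecules without identifiers. In bulk samples, fewer cells of a type and less RNA per cell cannot be told apart. The 5 adherens junction genes held 51.0% of these reads, the 7 desmosome genes 13.7%, the 7 claudins 12.9% and Epcam 3.64%.

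Per kilobase of exon, a scale on which levels of different genes can be compared, 3 genes stood above the others. Cldn3 averaged 234 normalized counts per kb (177 to 275 over the libraries), Ctnnb1 199 (172 to 251) and Cdh1 164 (131 to 194), each above at least 99.1% of the tested genes. Cldn7 at 68.4, Epcam at 65.5 and Ctnna1 at 63.1 came next, and the ranges of these 3 overlapped each other. F11r followed at 42.8 and Jup at 35.0. The median of the 30 tested genes was 13.1 against 7.91 over the 7464 tested genes with an exon length. At the low end were Itgb6 at 0.990, Dsc2 at 0.724 and Cldn1, which was listed at 0 in every library. In the plot of levels per kilobase the longest bars belong to genes with a library at 0 reads.

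**Figure D1:**
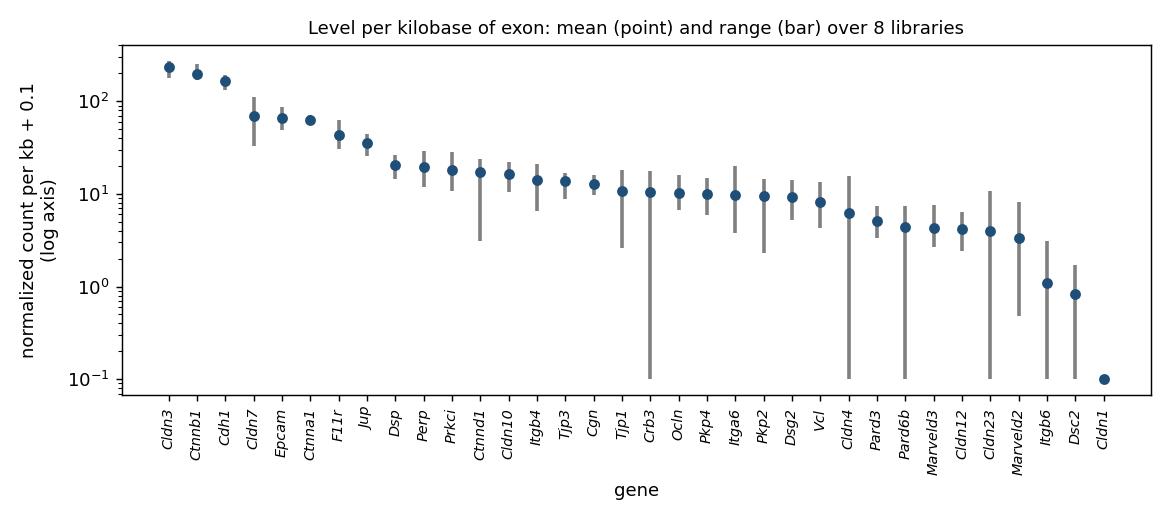
Level of each of the 34 junction and adhesion genes per kilobase of exon, as the mean (point) and the range (bar) of normalized counts per kb plus 0.1 over the 8 libraries, on a log axis, in falling order. Cldn3, Ctnnb1 and Cdh1 lie highest at 234, 199 and 164, and Cldn1, with no read, lies at the bottom.

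Replicates of a group scattered less in these genes than in most. Their median within-group standard deviation was 0.39 log2 units, against 0.60 for all tested genes, and was smallest for Ctnnb1 (0.05), Ctnna1 (0.08) and Cdh1 (0.09). It was largest for Crb3 (1.65), Pard6b (1.48), Cldn4 (1.09) and Marveld2 (1.00), which each had 148 reads or fewer in all libraries together. The tested genes of the list were also higher than most, with a median of 13.1 normalized counts per kb against 7.91. Their spread was not compared with that of genes at an equal level. The plot of all values shows the close points of Cdh1, Ctnna1 and Ctnnb1 beside the scattered low genes.

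**Figure D2:**
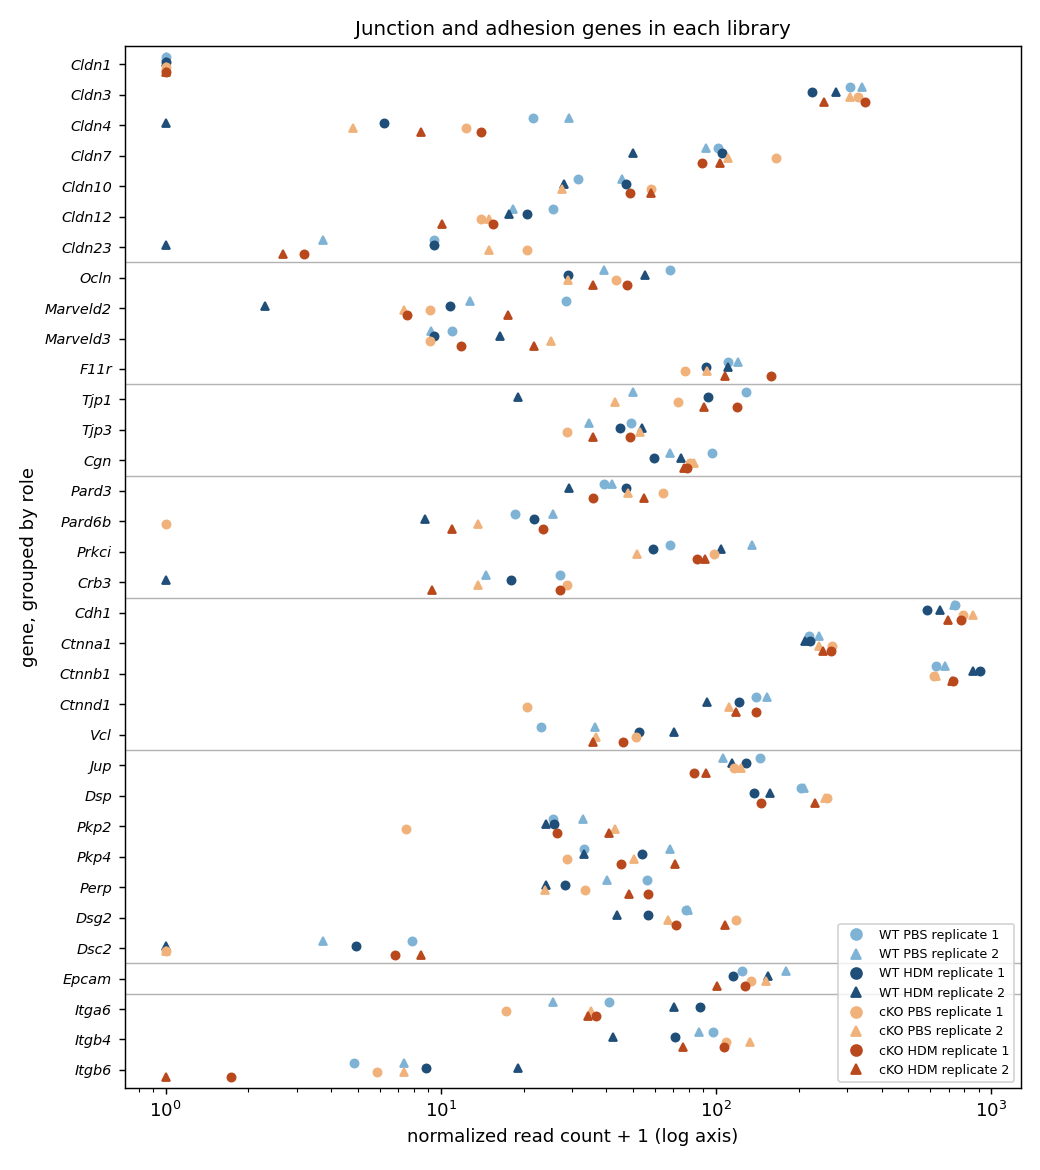
Normalized read count plus 1 (log axis) of all 34 genes, grouped by role with lines between the roles, 1 point per library. Circles are replicate 1 and triangles replicate 2, in blue for WT and orange for cKO, pale for PBS and dark for HDM. Both dark blue points (WT HDM) lie highest for Ctnnb1 and Itga6 and lowest for Cdh1.

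Claudins seal or open the tight junction to ions and water, and each cell type carries its own mixture. In the values below, the first of each pair is replicate 1 and the next replicate 2, in normalized counts. Cldn3, a sealing claudin, was at 305 and 337 in WT PBS, 222 and 272 in WT HDM, 329 and 305 in cKO PBS, and 346 and 245 in cKO HDM. Both WT HDM libraries lay below both WT PBS libraries, while the groups labelled cKO overlapped. The log2 fold change was -0.38 ± 0.25 (SE) for HDM in WT, with a 95% interval of -0.92 to 0.15 (limma adjusted p = 0.745).

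Cldn4, a claudin that tightens the junction to sodium and is known to increase in injured lung, had few reads. It was at 20.7 and 28.2 in WT PBS, 5.22 and 0 in WT HDM, 11.4 and 3.81 in cKO PBS, and 13.1 and 7.48 in cKO HDM, or 27 and 31, 8 and 0, 7 and 3, and 18 and 9 reads. WT PBS was above the other 6 libraries. The mean of Cldn4 over the 8 libraries was 11.2, near the limit of 10 for testing, which it reached only through WT PBS. Its fold changes that involve WT PBS follow in part from that filter. HDM against PBS in WT stood at -3.33 ± 1.27 (interval -6.03 to -0.64, limma unadjusted p = 0.0188, adjusted p = 0.415), the largest fold change of the 30 genes there, and did not pass. Since WT HDM replicate 2 had no read, its size depends on the pseudocount, and without that library it was -2.02. The interaction, cKO response minus WT response, was 3.83 ± 1.79 (limma adjusted p = 0.638).

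Cldn7, which also lines the side wall below the tight junction, was at 101 and 90.9 in WT PBS, 104 and 49.0 in WT HDM, 164 and 109 in cKO PBS, and 87.8 and 102 in cKO HDM. The libraries labelled cKO PBS were above both WT PBS and both cKO HDM libraries, at 0.48 ± 0.38 against WT PBS (limma adjusted p = 0.816). Cldn10, a pore-forming claudin of club cells, ranged from 26.7 to 57.3 with no order by treatment. Cldn12, which lacks the usual tail for binding ZO proteins, was at 24.5 and 17.3 in WT PBS, 19.6 and 16.8 in WT HDM, 13.0 and 14.0 in cKO PBS, and 14.5 and 9.14 in cKO HDM. All 4 libraries labelled cKO were below all 4 WT libraries (-0.59 ± 0.52 averaged over treatments, limma adjusted p = 0.739). Cldn23 had 55 reads in all, and was at 19.5 and 14.0 in cKO PBS against 0 to 8.48 in the other 6 libraries, too low to be tested. Cldn1, the claudin of the epidermal barrier, had 0 reads in each library.

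STAT proteins bind the palindrome TTCNNNGAA, so the 250 bases before the RefSeq transcript starts (GRCm38.p6, the same assembly as mm10) were searched for it on both strands. Of the 34 genes 24 had a promoter window in RefSeq's table, and 2 of the 24 (8.33%) held the motif, against 2197 of 27025 genes (8.13%), so the share was that of promoters in general. Both matches were in claudin genes and are shown because none of the other windows held one, with the motif in capitals and 10 bases on each side.
Cldn12: gcctgactggTTCCCTGAAgcctccgggg
Cldn7: ccccagggacTTCTGAGAAgccgtcgcct
The Cldn12 stretch lies at chr5:5514860-5514888 on the minus strand, with the motif starting 89 bases before a transcript start, within the Cldn12 gene. In the basic transcript set of GENCODE M21, 14 of its 29 bases are in an exon. The Cldn7 stretch lies at chr11:69965226-69965254 on the plus strand, 185 bases before a transcript start, in an intron of the basic set of Cldn7 transcripts. In the full set each stretch lies inside an exon of another model of its gene. A match describes the letters and is not a measured binding site. Cldn12 and Cldn7 had the values given above, with Cldn12 lower and Cldn7 higher in both cKO PBS than in both WT PBS libraries. Of all genes 19.1% were lower and 15.7% higher in this way. Under HDM, Cldn12 was again lower in both cKO libraries (21.9% of all genes), while the Cldn7 libraries of the genotypes overlapped. Whether STAT3 acts on either gene was not tested.

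Among the other membrane proteins of the tight junction, occludin (Ocln), which stabilizes the strands, was at 67.4 and 38.2 in WT PBS, 28.0 and 54.1 in WT HDM, 42.3 and 27.9 in cKO PBS, and 46.4 and 34.9 in cKO HDM, with every group overlapping every other. Marveld2, tricellulin, which seals the points where 3 cells meet, was at 27.6 and 11.8 in WT PBS, 9.78 and 1.29 in WT HDM, 8.13 and 6.35 in cKO PBS, and 6.53 and 16.6 in cKO HDM. Its WT PBS libraries were above both WT HDM and both cKO PBS libraries, on 1 to 36 reads per library. Marveld2 reached the limit for testing only through WT PBS, so these differences follow in part from that filter. Marveld3, the third member of that family, ranged from 8.13 to 24.1, and its HDM and PBS libraries overlapped within each genotype, as did the genotypes within each treatment.

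F11r, junctional adhesion molecule A, was at 109 and 119 in WT PBS, 90.6 and 109.6 in WT HDM, 76.5 and 91.4 in cKO PBS, and 157 and 107 in cKO HDM. Both cKO HDM libraries were above both cKO PBS libraries, by 0.63 ± 0.32 (limma adjusted p = 0.657). Under PBS, cKO against WT stood at -0.45 ± 0.32 (limma adjusted p = 0.79).

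The plaque proteins tie these strands to actin. Tjp1, ZO-1, the main scaffold, was at 127 and 49.1 in WT PBS, 92.6 and 18.0 in WT HDM, 71.6 and 41.9 in cKO PBS, and 118 and 89.7 in cKO HDM. Replicate 1 was above replicate 2 in each group, and WT HDM replicate 2 was the lowest of all on 14 reads. The difference of cKO against WT under HDM was 1.30 ± 0.62 (limma adjusted p = 0.525), and it was 0.15 without that library. The interaction was 1.82 ± 0.88 (limma adjusted p = 0.65), and 0.67 to 2.97 when each library was left out. Tjp3, ZO-3, ranged from 27.7 to 52.9 and cingulin (Cgn), a plaque protein that binds ZO-1 and myosin, from 58.7 to 95.7. Cgn stood at -0.29 ± 0.35 for HDM in WT and -0.08 ± 0.35 in cKO.

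Polarity genes gave small or uncertain values. Prkci, the atypical protein kinase C of the Par complex, ranged from 50.8 to 135 and Pard3, its scaffold, from 28.4 to 63.4. Crb3, the Crumbs protein of the apical membrane, had 0 reads in WT HDM replicate 2 and 8.31 to 27.7 normalized counts elsewhere. Pard6b, the Par adaptor, was at 17.6 and 24.6 in WT PBS, 20.9 and 7.74 in WT HDM, 0 and 12.7 in cKO PBS, and 22.5 and 9.97 in cKO HDM. Its difference of cKO against WT under PBS was -2.56 ± 1.19 (limma unadjusted p = 0.0474, adjusted p = 0.704), and HDM against PBS in cKO was 2.12 ± 1.19 (limma adjusted p = 0.68). Both values rest on cKO PBS replicate 1, which had no read: without it they were -0.67 and 0.23.

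The adherens junction held the most abundant genes and the narrowest intervals. Cdh1, E-cadherin (chromosome 8, 106603351 to 106670246, mm10), was at 739 and 733 in WT PBS, 582 and 651 in WT HDM, 792 and 861 in cKO PBS, and 776 and 694 in cKO HDM. The 2 WT HDM libraries were the lowest of the 8 and the 2 cKO PBS libraries the highest. HDM against PBS stood at -0.26 ± 0.19 in WT (interval -0.67 to 0.16, limma adjusted p = 0.786) and at -0.17 ± 0.19 in cKO (-0.58 to 0.24, limma adjusted p = 0.843).

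Ctnnb1, β-catenin (chromosome 9, 120929216 to 120960507, mm10), which links E-cadherin to α-catenin and also carries the Wnt signal, was the opposite of Cdh1 in order. It was at 630.0 and 677 in WT PBS, 908 and 857 in WT HDM, 621 and 629 in cKO PBS, and 728 and 719 in cKO HDM. Each of the 4 HDM libraries was above each of the 4 PBS libraries, and WT HDM was above cKO HDM. For HDM in WT the log2 fold change was 0.43 ± 0.19 (interval 0.03 to 0.84, limma unadjusted p = 0.0374, adjusted p = 0.51), and averaged over genotypes it was 0.32 ± 0.13 (0.04 to 0.61, limma unadjusted p = 0.0299, adjusted p = 0.528). Neither passed. Quantile normalization, which forces the libraries to 1 distribution, brought the value for HDM in WT down to 0.07.

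Ctnna1, α-catenin, which couples the complex to actin, was the steadiest gene of all, between 209 and 264 in all libraries. Its largest simple fold change was 0.24 ± 0.24, cKO against WT under HDM (interval -0.28 to 0.75). Ctnnd1, p120-catenin, which keeps cadherin at the cell surface, was at 139 and 153 in WT PBS, 121 and 91.5 in WT HDM, 19.5 and 110.5 in cKO PBS, and 139 and 117 in cKO HDM. The groups lay between 91.5 and 153 apart from cKO PBS replicate 1, which was far below on 12 reads.

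That library carried the results for Ctnnd1. HDM against PBS in cKO stood at 1.42 ± 0.55 (limma unadjusted p = 0.0196, adjusted p = 0.537) and cKO against WT under PBS at -1.61 ± 0.55 (limma unadjusted p = 0.00968, adjusted p = 0.682), the smallest p-values of the 30 genes in those comparisons. The interaction was 1.89 ± 0.77 (limma unadjusted p = 0.027, adjusted p = 0.593), and 0.67 without cKO PBS replicate 1. Without that library the values for HDM in cKO and for genotype under PBS were 0.20 (adjusted p = 0.908) and -0.39 (adjusted p = 0.816). Without cKO PBS replicate 2, where the low library stands alone for its group and is assumed to vary like the others, they were 2.65 (limma adjusted p = 0.000974) and -2.84 (limma adjusted p = 0.00114). Pard6b passed only in the same way (limma adjusted p = 0.0453 for HDM in cKO, and -4.45 with limma adjusted p = 0.0297 under PBS).

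Vcl, vinculin, which reinforces cadherin and integrin contacts under tension, was at 22.2 and 35.5 in WT PBS, 51.5 and 69.6 in WT HDM, 50.4 and 35.6 in cKO PBS, and 45.0 and 34.9 in cKO HDM. Both WT HDM libraries were above the other 6, though 1 of them, at 51.5, only just. The HDM value in WT was 1.07 ± 0.47 (interval 0.07 to 2.07, limma unadjusted p = 0.0381, adjusted p = 0.51) and did not pass. Exons of Vcl overlap those of Ap3m1 on the opposite strand by 2090 bases, and whether counting used strand is not given in the sources used here. Ap3m1 was at 0 to 20.6 normalized counts in every library. Opposite-strand exons also overlap Itgb4 (537 bases), Dsp (499), Dsg2 (330), Cldn3 (40) and Tjp3 (40), and Gm28635, which was not analysed here, shares 4482 of the 6433 exon bases of Ctnnd1 on the same strand. How reads in these stretches were assigned is not stated, so the values of these genes carry that uncertainty.

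Desmosomes fasten keratin filaments of neighbouring cells to each other. Dsp, desmoplakin, the protein that binds keratin, was at 202 and 208 in WT PBS, 137 and 156 in WT HDM, 252 and 248 in cKO PBS, and 144 and 228 in cKO HDM. In each genotype both HDM libraries were below both PBS libraries, though 1 cKO HDM library (228) lay above WT PBS. Averaged over genotypes, HDM against PBS stood at -0.47 ± 0.20 (interval -0.89 to -0.05, limma unadjusted p = 0.0303, adjusted p = 0.528).

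Dsg2, the desmosomal cadherin of simple epithelia, was at 76.5 and 78.2 in WT PBS, 55.4 and 42.5 in WT HDM, 117 and 66.0 in cKO PBS, and 70.4 and 107 in cKO HDM, lowest in WT HDM. Perp, a tetraspan protein needed for desmosome assembly, was at 55.1 and 39.1 in WT PBS, 27.4 and 23.2 in WT HDM, 32.5 and 22.9 in cKO PBS, and 55.9 and 47.3 in cKO HDM. Its groups crossed over: the HDM libraries were the lower ones in WT and the higher ones in cKO, without overlap in either genotype. HDM against PBS stood at -0.86 ± 0.48 in WT (limma adjusted p = 0.665) and 0.89 ± 0.48 in cKO (limma adjusted p = 0.672). The interaction was 1.75 ± 0.68 (interval 0.29 to 3.20, limma unadjusted p = 0.0215, adjusted p = 0.572), the smallest p of the 30 genes in that test, and did not pass. It lay between 1.50 and 1.99 when each library was left out.

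Jup, plakoglobin, shared by desmosomes and adherens junctions, was at 144 and 105 in WT PBS, 128 and 113 in WT HDM, 115 and 122 in cKO PBS, and 82.0 and 91.4 in cKO HDM, lowest in cKO HDM (-0.47 ± 0.31 against WT HDM, limma adjusted p = 0.675). Plakophilins join the cadherins to desmoplakin. Pkp2 ranged from 6.51, in cKO PBS replicate 1, to 41.9, and Pkp4, a plakophilin relative also found at adherens junctions, from 27.7 to 69.8, with no HDM and PBS groups separated in either. Dsc2, the other cadherin type of the desmosome, had 35 reads in all libraries and none in cKO PBS.

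Epcam, the surface glycoprotein often used to sort epithelial cells, was at 123 and 179 in WT PBS, 114 and 153 in WT HDM, 133 and 151 in cKO PBS, and 127 and 99.7 in cKO HDM. Its intervals held it within 2-fold in the 4 simple comparisons, from -0.33 ± 0.31 (HDM in cKO) to -0.07 ± 0.31 (cKO against WT under PBS, interval -0.73 to 0.60). Whether it served as the sort marker is not stated in the labels.

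The integrins α6 and β4 pair in the hemidesmosome and bind laminin, but α6 also pairs with β1, in epithelial and other cells, including endothelium. Itga6 (chromosome 2, 71745616 to 71858416, mm10) was at 39.8 and 24.6 in WT PBS, 86.7 and 69.6 in WT HDM, 16.3 and 34.3 in cKO PBS, and 35.6 and 33.2 in cKO HDM. Both WT HDM libraries were above the other 6, none of which exceeded 39.8. HDM against PBS in WT was 1.29 ± 0.51 (interval 0.21 to 2.37, limma unadjusted p = 0.0227, adjusted p = 0.45), and cKO against WT under HDM was -1.15 ± 0.51 (-2.23 to -0.07, limma unadjusted p = 0.0378, adjusted p = 0.483). Neither passed, and the interaction was -0.77 ± 0.72 (limma adjusted p = 0.789).

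Itgb4 went the other way. It was at 96.4 and 85.5 in WT PBS, 69.8 and 41.3 in WT HDM, 107 and 132 in cKO PBS, and 106 and 74.8 in cKO HDM, with both WT HDM libraries the lowest. Averaged over genotypes, HDM against PBS stood at -0.58 ± 0.26 (limma unadjusted p = 0.0404, adjusted p = 0.557), and cKO against WT, averaged over treatments, at 0.55 ± 0.26 (limma unadjusted p = 0.0498, adjusted p = 0.593). Itgb6, the β chain that with αv activates TGF-β, had 47 reads. It was at 7.83 and 18.0 in WT HDM and 0.726 and 0 in cKO HDM, with 3.83 to 6.37 in the PBS libraries. The panels of single genes by group show Itga6 and Vcl high and Itgb4, Dsg2 and Cdh1 low in WT HDM.

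**Figure D3:**
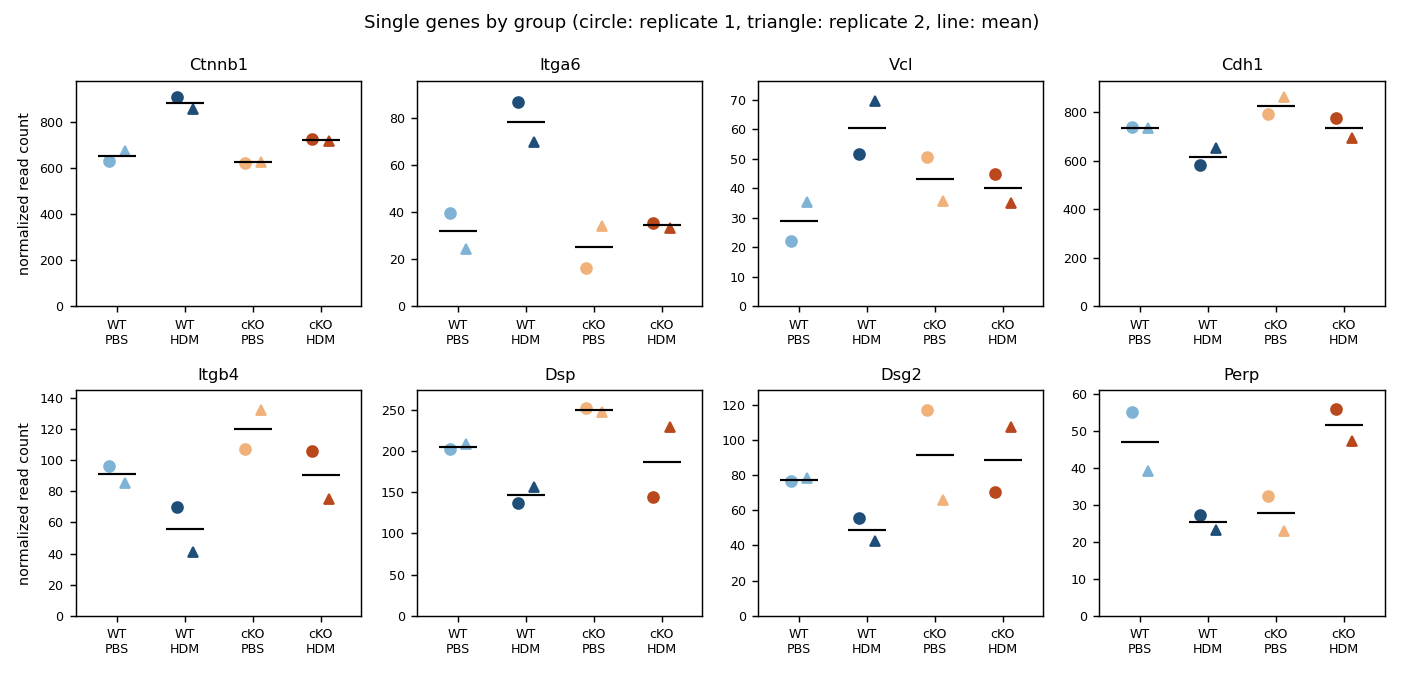
Normalized read count (vertical axis, from 0) of 8 genes chosen after their values were seen, in 4 groups of 2 libraries: circle for replicate 1, triangle for replicate 2, line for the mean. Ctnnb1, Itga6 and Vcl have both WT HDM points above all others, while Cdh1, Itgb4 and Dsg2 have them lowest.

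Because β-catenin and E-cadherin stood in opposite order, their ratio within each library, which no scaling of libraries can alter, was taken as a description after the values had been seen. Ctnnb1 to Cdh1 was 0.853 and 0.923 in WT PBS, 1.56 and 1.32 in WT HDM, 0.784 and 0.730 in cKO PBS, and 0.938 and 1.04 in cKO HDM. It was highest in both WT HDM libraries. These are ratios of counts not divided by exon length (3623 bases for Ctnnb1 and 4430 for Cdh1). A ratio of 1 therefore does not mark equal levels, and only the order of the libraries is read. Itga6 to Itgb4 was 0.413 and 0.287 in WT PBS, 1.24 and 1.69 in WT HDM, 0.152 and 0.260 in cKO PBS, and 0.336 and 0.444 in cKO HDM. This ratio too was highest in both WT HDM libraries. By contrast the ratio of Ctnna1 to Cdh1 stayed between 0.274 and 0.376 in all 8.

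Read as a list, the response to HDM in WT leaned downward. Its negative values include Cldn4 and Marveld2, which were tested only because of their level in WT PBS. Of 30 genes 25 had a negative log2 fold change and 5 a positive one, against 51.5% negative and 48.5% positive over all genes tested, and the median was -0.27 against -0.03. All 5 claudins tested, all 4 polarity genes and all 6 desmosome genes were negative, as were 3 of 4 other tight junction membrane genes, 2 of 3 plaque genes and 3 of 5 adherens junction genes. Both libraries of 1 group lay below both of the other for 9 genes, against 20.8% of all genes, and above them for 3, against 21.2%. None passed with limma, where 0.519% of all genes did, and 4 of 30 had an unadjusted p under 0.05, against 8.93% of all genes. By edgeR and DESeq2 0 passed and 3 had an unadjusted p under 0.05 with each. The count rests in part on WT HDM replicate 2: without it 11 of the 30 were positive and the median was -0.16.

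With HDM in the libraries labelled cKO, the genes had a median and a split of signs close to those of all genes. There 17 were positive and 13 negative, with a median of 0.09 against 0.10 over all genes, of which 55.5% were positive and 44.5% negative. F11r, Tjp1, Ctnnb1, Ctnnd1 and Perp were higher in both HDM libraries (19% of all genes were), and Cldn7, Cgn, Cdh1, Jup, Dsp, Epcam and Itgb4 lower (16.7% of all genes). None passed with limma, where 0.0532% of all genes did, or with edgeR or DESeq2, and 1, Ctnnd1, had an unadjusted p under 0.05 with limma (7.77% of all genes), 0 with the other tools. The interaction, which tests whether the responses of the genotypes differed, was passed by none, against 0.0266% of all genes. With limma 3 had an unadjusted p under 0.05 (Perp, Ctnnd1 and Cldn4), against 7.77% of all genes, with edgeR 1 and with DESeq2 2. Its median was 0.30 against 0.16 over all genes, with 20 of 30 positive and 10 negative, against 56% and 44% of all genes. That the list leaned downward in WT and not in cKO is therefore not shown to be a difference between genotypes.

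Between genotypes under HDM, 23 of the 30 were positive, that is higher in cKO as labelled, and 7 negative, against 50.8% and 49.2% of all genes. The median was 0.26 against 0.02. This comparison shares its WT HDM libraries with the comparison of HDM and PBS in WT. Cldn4, Cldn10, Cgn, Cdh1, Ctnna1, Pkp2, Perp, Dsg2 and Itgb4 were higher in both cKO libraries (21.1% of all genes) and Cldn12, Ctnnb1, Vcl, Jup and Itga6 lower (21.9% of all genes). Perp stood at 1.00 ± 0.48 (limma adjusted p = 0.531) and Dsg2 at 0.83 ± 0.39 (limma adjusted p = 0.525). None passed with limma, against 0.572% of all genes, or with the other tools. Itga6 alone was under an unadjusted p of 0.05 with limma (9.6% of all genes), 2 with edgeR and 1 with DESeq2. Without WT HDM replicate 2, 19 were positive and the median was 0.16.

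Under PBS, 11 of 30 were higher and 19 lower in cKO as labelled, against 44.6% and 55.4% of all genes. The median was -0.06 against -0.09 over all genes. Cldn7, Pard3, Cdh1, Vcl, Dsp and Itgb4 were higher in both libraries (15.7% of all genes), and Cldn4, Cldn12, Marveld2, F11r, Pard6b, Ctnnb1, Ctnnd1 and Perp lower (19.1% of all genes). Cldn4 and Marveld2 reached the limit for testing only through WT PBS, so their negative values follow in part from that filter. Perp stood at -0.75 ± 0.48 (limma adjusted p = 0.765). None passed with limma, edgeR or DESeq2, and 0% of all genes did with limma. An unadjusted p under 0.05 was found for 2 with limma (6.96% of all genes), 1 with edgeR and 1 with DESeq2.

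Averaged over genotypes, HDM against PBS gave 13 positive and 17 negative values, against 52.8% and 47.2% of all genes, with a median of -0.05 against 0.04. Ctnnb1 alone had all 4 HDM libraries above all 4 PBS libraries, which held for 2.26% of all genes, and 0 had them all below (1.66% of all genes). None passed with limma (0.399% of all genes did), edgeR or DESeq2, and with limma the unadjusted p was under 0.05 for 4, Itga6, Ctnnb1, Dsp and Itgb4 (8.45% of all genes), 3 with edgeR and 3 with DESeq2. Itga6 stood at 0.90 ± 0.36 (interval 0.14 to 1.67, limma adjusted p = 0.507).

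Averaged over treatments, cKO against WT gave 16 positive and 14 negative values, against 47.4% and 52.6% of all genes, with a median of 0.08 against -0.04. Cldn12 alone had all 4 libraries labelled cKO below all 4 WT libraries, which held for 1.98% of all genes, and 0 had them all above (1.78% of all genes). None passed with limma (0.12% of all genes did) or the other tools, and 2, Itga6 and Itgb4, had an unadjusted p under 0.05 with limma (8.41% of all genes), 0 with edgeR and with DESeq2. Itga6 stood at -0.77 ± 0.36 (limma adjusted p = 0.585), Dsg2 at 0.50 ± 0.28 (limma adjusted p = 0.627) and Ctnnd1 at -0.67 ± 0.39 (limma adjusted p = 0.638).

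A missed threshold does not show that a gene was unchanged, and the intervals say how far each could have moved. The whole 95% interval lay within 2-fold for 7 of 30 genes for HDM in WT (6.98% of all genes), 7 for HDM in cKO (7.79%), 7 for cKO against WT under HDM (6.52%) and 8 under PBS (8.71%). Cdh1, Ctnna1 and Ctnnb1 were among them in all 7 comparisons. The median half-width of the interval was 1.01 log2 units for these genes and 1.41 for all genes. These genes were also higher than most, and widths were not compared at an equal level. In the 4 comparisons of 2 groups, the intervals of Cldn4, Crb3, Marveld2 and Pard6b spanned more than 4 log2 units.

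**Figure D4:**
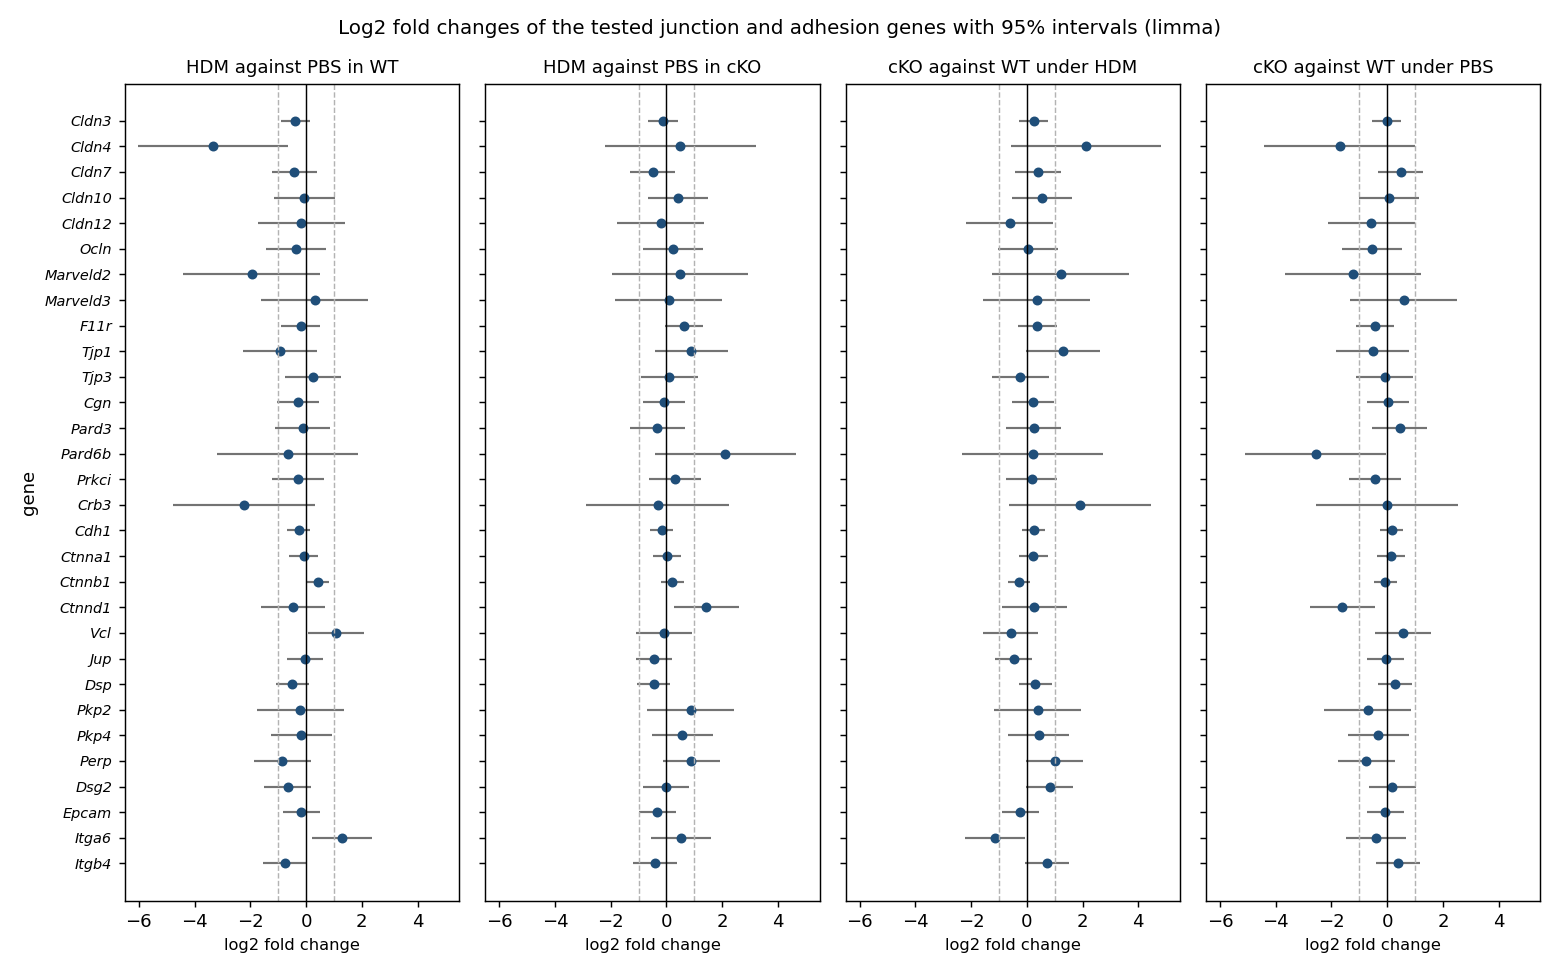
Log2 fold change (point) and 95% limma interval (bar) of the 30 tested genes in the 4 comparisons of 2 groups, with dashed lines at a 2-fold change in either direction. In the panel of HDM in WT 25 points lie left of 0, and the shortest bars are those of Cdh1, Ctnnb1 and Ctnna1.

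Markers of other cell types differed in the same WT HDM libraries. The 11 endothelial markers summed to 289 and 278 normalized counts in WT PBS, 1137 and 1216 in WT HDM, 389 and 254 in cKO PBS, and 208 and 312 in cKO HDM, with 10 of 10 tested markers positive for HDM in WT and 2 passing. The 8 fibroblast and smooth muscle markers summed to 62.8 and 104 in WT PBS, 1205 and 1297 in WT HDM, 34.2 and 109 in cKO PBS, and 104 and 105 in cKO HDM, with 5 of 5 tested positive and 3 passing. Both lists were thus above all other libraries in both WT HDM libraries, as were Itga6 and Vcl. Of all genes tested 48.5% were positive for HDM in WT and 0.519% passed. The endothelial markers Tie1 and Egfl7 and the fibroblast marker Pdgfra reached the limit for testing only through WT HDM. Their positive values follow in part from that filter.

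Epithelial markers differed too. Ciliated cell markers (10 genes) summed to 5526 and 6195 in WT PBS, 3490 and 4316 in WT HDM, 7034 and 6283 in cKO PBS, and 6392 and 5944 in cKO HDM, lowest in WT HDM as Cdh1 was. Alveolar type 2 markers were highest there, with 10 of 10 positive for HDM in WT and 3 passing, against 48.5% and 0.519% of all genes. Leukocyte markers were low: Cd3g and Ncr1 had no read in any library, Ptprc was at 12.4 and 37.4 in WT HDM and 0 to 3.64 elsewhere, and the 6 macrophage and dendritic cell markers summed to 50.2 and 122 in WT HDM and 0 to 5.36 elsewhere. The part of these cell types in the values of the junction and adhesion genes was not tested.

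**Figure D5:**
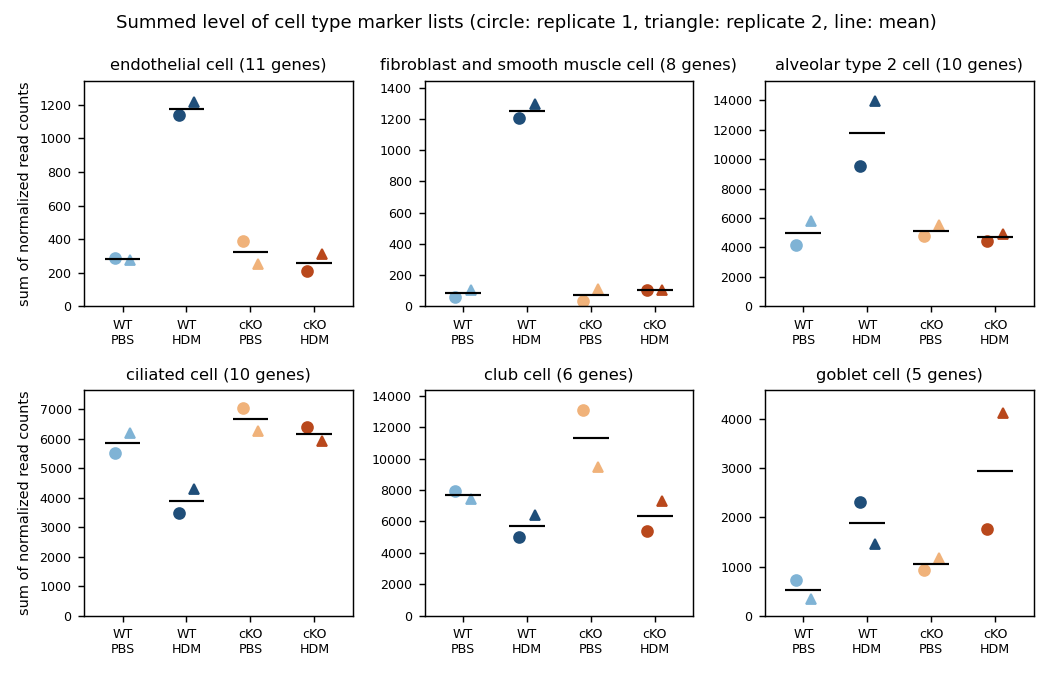
Summed normalized read counts (vertical axis, from 0) of 6 cell type marker lists in the 4 groups: circle for replicate 1, triangle for replicate 2, line for the mean. Endothelial sums are 1137 and 1216 in WT HDM and 208 to 389 elsewhere, and ciliated sums are lowest in WT HDM at 3490 and 4316.

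A wider list of 83 further junction and adhesion genes, of which 75 were in the table and 46 were tested, gave 1 gene that passed. It passed for cKO against WT under HDM, where 0.572% of all genes did. Cdh5, the cadherin of endothelial adherens junctions and itself 1 of the endothelial markers above, was at 42.1 and 40.0 in WT PBS, 174 and 215 in WT HDM, 92.7 and 29.2 in cKO PBS, and 30.5 and 45.7 in cKO HDM. It fell by 2.34 ± 0.48 in cKO against WT under HDM (limma adjusted p = 0.0405), and stood at 2.21 ± 0.48 for HDM in WT (limma adjusted p = 0.0541). The call did not hold when either library of WT HDM, cKO HDM or WT PBS was left out (-2.63 to -2.06, limma adjusted p = 0.0894 to 0.512). Cldn5, the endothelial claudin, was at 106 and 111 in WT HDM and 24.1 to 42.3 elsewhere, and stood at 1.88 ± 0.46 for HDM in WT (limma adjusted p = 0.101).

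Of the 46, 27 were positive for HDM in WT (48.5% of all genes) and 23 for HDM in cKO (55.5%). For cKO against WT 17 were positive under HDM (50.8% of all genes) and 19 under PBS (44.6%). The medians in this order were 0.11, -0.00, -0.18 and -0.29. For HDM in WT, where 48.5% of all genes were positive, so were 9 of 17 other tight junction genes, 3 of 7 polarity genes, 5 of 10 adherens junction genes, 1 of 2 desmosome genes and 9 of 10 hemidesmosome and integrin genes. Magi1, a tight junction scaffold, stood at 2.59 ± 1.10 for HDM in cKO and -2.75 ± 1.10 for cKO against WT under PBS (limma adjusted p = 0.573 and 0.694), with 0 reads in cKO PBS replicate 1. Cxadr, a tight junction adhesion receptor, was at 67.4 and 47.3 in WT PBS, 107 and 108 in WT HDM, 83.0 and 43.2 in cKO PBS, and 90.0 and 115 in cKO HDM. It was higher in all 4 HDM libraries than in all 4 PBS libraries, which held for 2.26% of all genes (0.84 ± 0.28 averaged over genotypes, limma adjusted p = 0.397). Nectin1, an immunoglobulin-like adhesion molecule of adherens junctions, was lower in all 4 libraries labelled cKO, which held for 1.98% of all genes (-1.64 ± 0.51 averaged over treatments, limma adjusted p = 0.367).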

How the data were processed

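RNA was measured in 8 libraries, 2 in each of 4 groups taken from the sample titles. Libraries were built with a strand-specific kit, per the labels' protocols. The deposited values are a signal, read counts after the authors' normalization, and HOMER, DESeq2 and mm10 are named per the submitters' processing notes. Not given in the sources used here are the aligner, the annotation and whether counting used strand. All values (100%, tolerance 0.01 reads) were whole multiples of the value of 1 read, so whole reads were recovered, and 0 columns were left unused.

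Genes with a mean of at least 10 were tested on log2(value + 1), which draws low values together. Where a library had few or no reads, fold changes could still be larger than by edgeR. Crb3 for HDM in WT was -2.23 by limma and -1.12 by edgeR, and Pard6b for HDM in cKO 2.12 and 1.29. Marveld2 for HDM in cKO went the other way, at 0.49 and 0.69. The model had 1 mean for each group over the 8 libraries (limma 3.58.1, R 4.3.3, trended eBayes), two-sided, with Benjamini-Hochberg adjustment over 7512 genes. It gave 7 comparisons: treatment within each genotype, genotype within each treatment, the interaction, and the averaged effects of treatment and of genotype. The code was tested on simulated data. Alternatives were pseudocounts of 0.2 and 5, no filter or a mean of 50, other scalings, variance models and library weights, a replicate block, fits of only the groups compared, each library left out, and edgeR 4.0.16 and DESeq2 1.42.0 on the whole reads. Leaving out both libraries that stand apart was added after seeing the data.

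Replicate numbers did not pair libraries: correlations of replicate differences between groups were -0.02 to 0.02 across genes. Chi-square per degree of freedom between replicates was 4.92 to 6.28, so no library copied another. Exon lengths, positions and overlaps came from GENCODE M21 (GRCm38, which is mm10), and all 34 genes had a length. The genes and marker lists were chosen with earlier results of these data known. In each comparison the genes that passed, or else the 4 with the smallest unadjusted p, were named with their statistics, and other genes are named by their role or as stated. The intervals of the read shares and the limit for a count of 0 cover counting error only. The limma intervals of the fold changes rest on the spread between libraries.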

Additional observations from a re-analysis of the deposited data

How the results depend on the processing

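None of the 30 tested genes passed under any setting run except without cKO PBS replicate 2, in the fits that left out each library. The count then ranged from 0 to 2 for HDM against PBS in cKO and for cKO against WT under PBS, and from 0 to 1 for the interaction and for both averaged comparisons. The genes were Ctnnd1 and, in the first 2 comparisons, Pard6b. In that fit the low library is the only one of its group. With the replicate block the count stayed at 0 in all 7 comparisons. Of 4635 fold changes over all settings, 232 changed sign without a call and 0 reversed a call. For the genes named by their p, 613 of 619 kept sign and call.

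Counts over all genes moved more. For HDM in WT 39 genes passed, 3 to 110 when a library was left out and 1 to 190 under other settings. For HDM in cKO, 4 became 0 to 320 and 0 to 116. For cKO against WT under HDM, 43 became 3 to 117 and 0 to 142, and under PBS 0 became 0 to 315 and 0 to 87. For the interaction, 2 became 0 to 115 and 0 to 27. For the averaged comparisons, 30 became 10 to 193 and 8 to 106, and 9 became 1 to 181 and 0 to 67. Scaling to equal totals shifted the median of all genes by 0.12 for the interaction. Depth limits the genes with a library at 0 reads, whose fold changes depend on the pseudocount. With both libraries that stand apart left out, 11 of 30 genes were positive for HDM in WT and 19 for cKO against WT under HDM. Cdh5 in cKO against WT under HDM stayed negative under every setting run. It did not pass with a pseudocount of 0.2 (adjusted p = 0.0868), with no filter (0.192), with equal totals (0.0536) or without the variance trend (0.412), and passed by edgeR (0.0225), DESeq2 (0.000341) and with the replicate block (0.0425).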
